A study of Mus musculus with 16 samples.

Results

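Respiratory complexes II to V and cytochrome c were described from 76 probe sets of 46 genes, out of 7729 probe sets of 4929 singly named genes in the table. A probe set, the group of short oligonucleotides by which the array reads a transcript, was a member where its only gene symbol began with Sdh and a letter from a to d, with Uqcr, with Cox and a digit from 4 to 8, or with Atp5, or where it was Cyc1 or Cycs. The rule reads gene symbols only. Complex II, succinate dehydrogenase, had 7 probe sets of 4 genes. Complex III, the cytochrome bc1 complex, had 13 of 9 genes, and cytochrome c had 3 of 1 gene. Complex IV, cytochrome c oxidase, had 24 of 12 genes, and complex V, ATP synthase, had 26 of 17 genes. The other 3 probe sets read Sdhaf1, Sdhaf2 and Sdhaf4, which share the letters but encode assembly factors of complex II and no subunit.

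The RNA came from gastrocnemius, a calf muscle, and triceps, a forelimb muscle, of 7-week-old C57BL/6 females, which the design text calls presymptomatic. One genotype carried a transgene for a mutant human superoxide dismutase (SOD1G93A), an established model of amyotrophic lateral sclerosis, and the other was non-transgenic (NTg). Each of the 4 genotype-by-muscle groups had 4 arrays, 16 in all, from 4 mice of each genotype. The labels name neither the transgene's promoter nor its copy number. The series asks how the transgene relates to muscle expression before symptoms.

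Electrons from succinate enter the chain at complex II, whose flavin and iron-sulfur subunits are encoded by Sdha and Sdhb, and pass through ubiquinol to complex III. Cytochrome c carries them on to complex IV, where oxygen is reduced, and the proton gradient made by complexes III and IV drives ATP synthesis by complex V. Striated muscle uses its own isoforms of several complex IV subunits, and oxidative fibres hold more mitochondria than glycolytic ones. Most subunits are encoded in the nucleus. The table held 0 of the 12 listed spellings for subunits encoded in mitochondrial DNA, so only nuclear genes are described.

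Values are log2 signals, and a difference of 1 is a doubling. Signals of different probe sets are not comparable as levels, so only differences of a probe set between arrays are compared. Of the members, 75 probe sets of 45 genes passed the filter on mean signal and were tested. The exception was Sdhaf2, with a mean log2 signal of 6.34. Of the tested members, 64 were among the brightest 20% of all tested probe sets, those with a mean log2 signal above 9.42. A suffix in the probe set name marks sets whose oligonucleotides may also bind related transcripts, and 10 tested members had the suffix s and 12 the suffix x.

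Muscle identity and array quality were checked first. All 14 listed skeletal muscle fibre markers passed the filter on mean signal, with a mean log2 signal over their 16 probe sets of 12.51 to 14.24 in the 16 arrays. The more strongly read Sod1 probe set, designed on the mouse gene, had a mean of 11.15 ± 0.15 (SD, n = 4) in NTg and 11.32 ± 0.30 (SD, n = 4) in SOD1G93A gastrocnemius, which is no check of the human transgene. 3 triceps arrays stood apart, NTg replicates 1 and 2 and SOD1G93A replicate 2. Their highest log2 signal was 13.08 to 13.29, against 13.94 to 14.57 in the other 5 triceps arrays and 14.14 to 14.81 in gastrocnemius. Counts by complex that rest on triceps, and the leading members there, are therefore given with and without these 3 arrays. Without them, triceps keeps replicates 3 and 4 of NTg and replicates 1, 3 and 4 of SOD1G93A. Genotype and replicate number are then no longer balanced.

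Promoter letters are shown for 4 members named in the results, and no test of expression used these letters. Atp5h was the only member called between the muscles, Atp5md had the smallest genotype p, the probe sets of Cycs lay on opposite sides of 0 between the muscles, and Cox8b, a muscle isoform, had the smallest unadjusted p in complex IV between the muscles. Each line holds the 250 bases before the annotated start, 5′ to 3′ on the strand of the gene, from RefSeq on GRCm38.p6, and all 4 genes lie on the minus strand. Capitals mark matches to the motifs named after the sequences.
Atp5h, chr11:115419920-115420169: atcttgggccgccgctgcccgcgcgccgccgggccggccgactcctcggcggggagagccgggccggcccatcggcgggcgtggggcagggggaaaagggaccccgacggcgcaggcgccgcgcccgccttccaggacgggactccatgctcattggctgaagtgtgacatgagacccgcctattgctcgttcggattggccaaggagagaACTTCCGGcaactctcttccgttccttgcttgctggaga
Atp5md, chr19:47090648-47090897: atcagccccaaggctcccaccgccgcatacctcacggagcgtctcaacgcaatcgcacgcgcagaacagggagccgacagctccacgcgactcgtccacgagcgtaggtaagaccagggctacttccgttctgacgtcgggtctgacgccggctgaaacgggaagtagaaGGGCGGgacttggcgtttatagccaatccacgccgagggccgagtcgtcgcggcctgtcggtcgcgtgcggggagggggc
Cycs, chr6:50566570-50566819: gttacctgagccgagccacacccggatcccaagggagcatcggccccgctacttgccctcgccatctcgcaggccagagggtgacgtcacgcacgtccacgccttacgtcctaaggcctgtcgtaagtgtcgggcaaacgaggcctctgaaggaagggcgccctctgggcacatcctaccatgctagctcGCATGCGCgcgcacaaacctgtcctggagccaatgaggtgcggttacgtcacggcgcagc
Cox8b, chr7:140900447-140900696: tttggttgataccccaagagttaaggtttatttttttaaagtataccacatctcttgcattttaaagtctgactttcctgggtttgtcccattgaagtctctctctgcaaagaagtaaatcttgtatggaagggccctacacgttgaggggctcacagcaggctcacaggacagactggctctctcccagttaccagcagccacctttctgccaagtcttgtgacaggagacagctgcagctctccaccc
In these windows Atp5h had a GABP match 39 bases before the start, Atp5md an Sp1 match 80 bases before it, and Cycs an NRF1 match 60 bases before it. Cox8b had no match to the 5 motifs in its window.

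Windows of 300 bases, 250 before and 50 after the start, were found for 36 of the 46 genes, 39 windows in all. Both strands were searched for GCATGCGC (core of the NRF1 motif), CCGGAAGT (GABP), CAAGGTCA (ERR), AAGATGGCG (YY1) and GGGCGG (Sp1). These factors are known regulators of nuclear genes for mitochondrial proteins, Sp1 being a general one. NRF1 letters were in 8 of 39 windows (20.5%), against 2.71% of 32851 promoter windows. The 8 genes were Atp5g2, Atp5k, Atp5l, Cox6a1, Cycs, Sdhb, Uqcr11 and Uqcrc1. A wider spelling with an open base had been searched first and was in 28.2% of member windows and 4.6% of all windows. The core replaced it after those matches were seen, because that open base takes in letters outside the known motif. The core is also shorter, and neither spelling takes in all matched genes of the other. Of the genes printed above, Atp5h had the longer spelling and not the core, and Cycs had the core and not the longer spelling. GABP letters were in 4 windows (10.3%, against 3.89%), those of Atp5h, Cox8a, Uqcr11 and Uqcrh. ERR letters were in 3 (7.7%, against 1.56%), YY1 letters in 2 (5.1%, against 1.4%) and Sp1 letters in 16 (41.0%, against 35.66%). None of the 5 motifs contains another, and a match describes the sequence only.

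The first comparison asked whether these genes differed between SOD1G93A and NTg muscle before symptoms. No member differed between the genotypes at an adjusted p under 0.05 in limma, in either muscle or over both. That was true of the whole table, with 0% called in gastrocnemius, 0% in triceps, 0% over both muscles and 0% when the genotype effect in gastrocnemius was set against that in triceps (the interaction). At an unadjusted p under 0.05, 0 of 75 members passed in gastrocnemius (2.22% of all tested), 1 in triceps (2.54%), 1 over both muscles (1.83%) and 1 for the interaction (1.85%). None of these counts exceeds what the share of the whole table would give in 75 probe sets.

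The median member differed by 0.02 in gastrocnemius, 0.01 in triceps and 0.01 over both muscles on the log2 scale, SOD1G93A minus NTg. The same medians over all tested probe sets were -0.01, 0.02 and 0.01. Members above 0 numbered 46, 41 and 42 of 75. Without the 3 triceps arrays, 15 of 75 were above 0 in triceps, with a median of -0.05, and 30 over both muscles, with a median of -0.02. The direction in triceps thus depended on which arrays were kept. In the NTg triceps arrays kept, the median deviation of the members from their own means was 0.04 and 0.12. It was -0.13, -0.02 and 0.18 in SOD1G93A replicates 1, 3 and 4. Replicate 1 of SOD1G93A, which was kept, had 62 of 75 members below their means, against 52 to 66 in the 3 arrays left out. Its highest log2 signal, 13.94, was the lowest of the triceps arrays kept. The parts of replicate number and of that array in the change of direction were not tested.

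The intervals bound what these arrays could have shown. Over both muscles the 95% confidence interval of the genotype difference lay within 1.5-fold either way for 71 of 75 members and within 2-fold for all 75. In gastrocnemius alone 59 of 75 lay within 1.5-fold and 73 within 2-fold, and in triceps 57 and 74. Over all tested probe sets the share within 1.5-fold was 79.9% over both muscles, 57.5% in gastrocnemius and 55.3% in triceps.

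**Figure D1:**
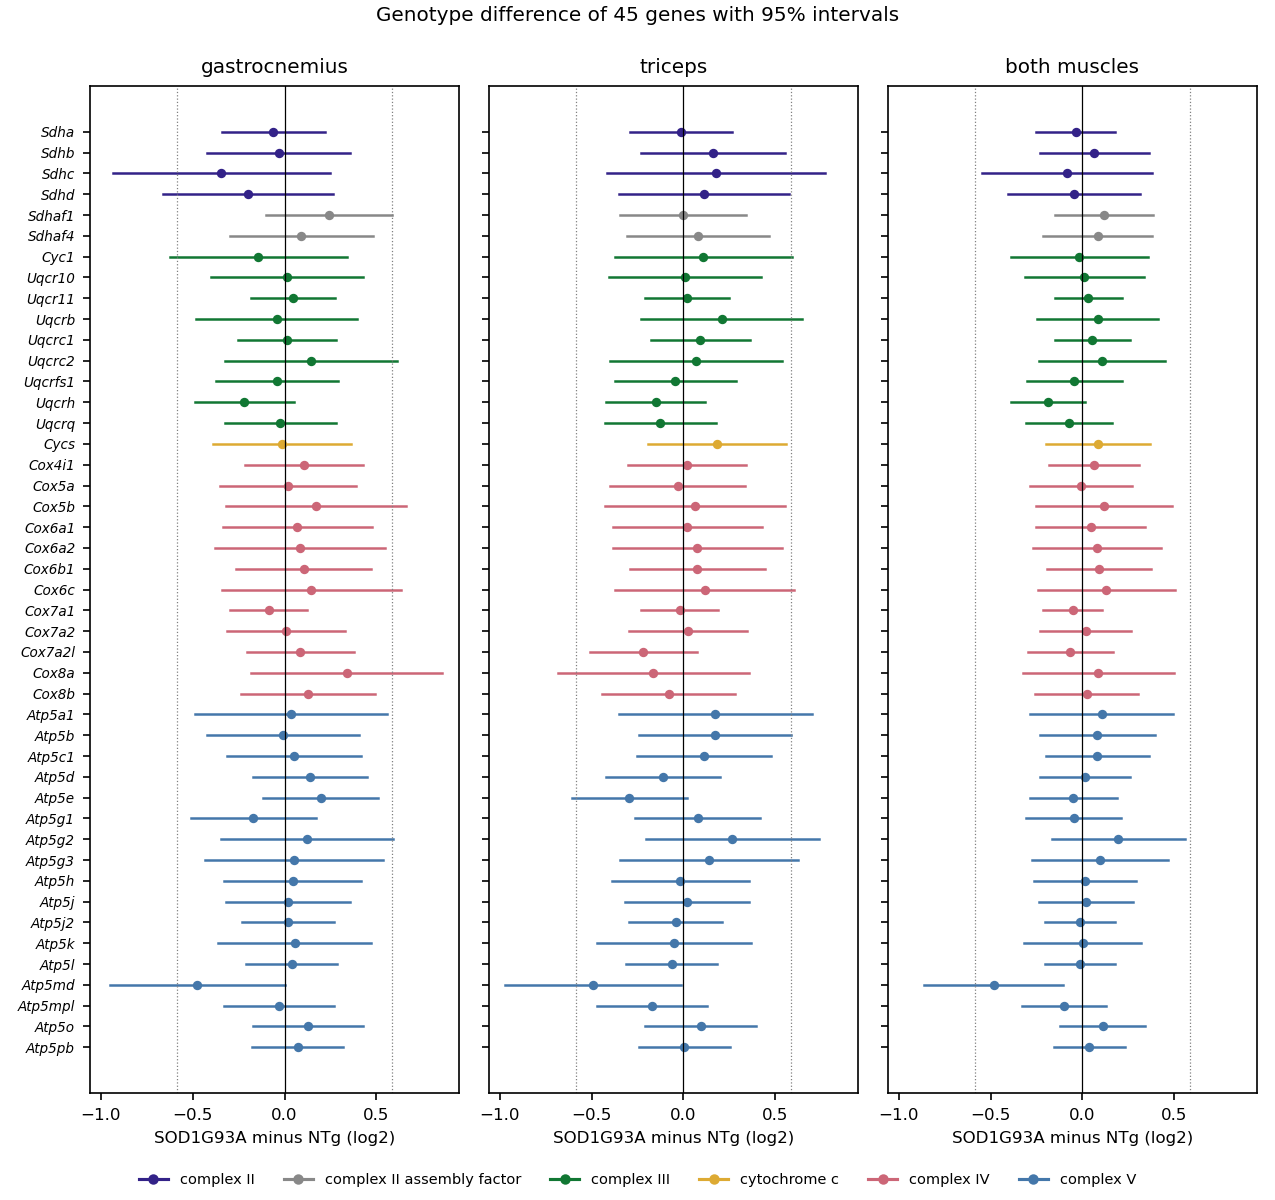
Genotype difference (SOD1G93A minus NTg, log2) of 45 genes, each by its brightest probe set, in gastrocnemius, in triceps and over both muscles. Points are limma estimates, bars their 95% confidence intervals, colours the complexes, and dotted lines 1.5-fold either way; most points lie near 0, and Atp5md, at -0.48 over both muscles, lies farthest from it there.

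In complex II, all 7 probe sets had a lower mean in SOD1G93A than in NTg gastrocnemius, by -0.03 to -0.48 with a median of -0.20, and none passed the test. In triceps 4 of the 7 lay above 0, with a median of 0.11, or 2 of 7 without the 3 arrays. Sdha, the flavin subunit that oxidises succinate, read 11.12, 11.00, 11.10 and 11.25 in NTg and 10.79, 10.95, 10.99 and 11.00 in SOD1G93A gastrocnemius on 1426688_at. The highest SOD1G93A value met the lowest NTg value there. The difference was -0.18 ± 0.19 (SE, limma adjusted p = 0.999), and on the other Sdha probe set it was -0.06 ± 0.13. Sdhb, the iron-sulfur subunit, differed by -0.03 ± 0.19 in gastrocnemius and 0.16 ± 0.19 in triceps, or -0.03 there without the 3 arrays. Sdhc and Sdhd anchor the enzyme in the membrane. The brighter Sdhc probe set, 1435986_x_at, differed by -0.34 ± 0.28 in gastrocnemius and 0.18 ± 0.28 in triceps, or -0.06 there without the 3 arrays. The other, 1448630_a_at, differed by -0.24 ± 0.17 in gastrocnemius and -0.05 ± 0.17 in triceps, or 0.03 there without them. The dimmer Sdhd probe set, 1437489_x_at, had the largest gastrocnemius difference of the complex, at -0.48 ± 0.25 (unadjusted p = 0.0733). Its values were 7.35, 7.53, 7.38 and 7.29 in NTg and 7.52, 6.48, 6.32 and 7.31 in SOD1G93A, so replicates 2 and 3 of SOD1G93A set the difference and the groups overlapped. The brighter Sdhd probe set gave -0.20 ± 0.22.

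The interaction, the effect in gastrocnemius minus that in triceps, was below 0 for all 7 complex II probe sets, with a median of -0.31. Without the 3 arrays it was below 0 for 6 of 7. It takes in the gastrocnemius differences given above, so this count is no separate observation, and the 7 probe sets read 4 genes. Its smallest unadjusted p values in the complex were 0.131 for Sdha (1426688_at, -0.42), 0.207 for Sdhc (-0.52) and 0.276 for Sdhd (1437489_x_at, -0.40). None was called, at a limma adjusted p of 0.999. The complex II assembly factor Sdhaf1 differed by 0.24 ± 0.16 in gastrocnemius, and Sdhaf4 by 0.09.

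In complex III, 5 of 13 probe sets were above 0 in gastrocnemius and 8 of 13 in triceps, with medians of -0.04 and 0.01. Without the 3 arrays, 0 of 13 were above 0 in triceps, with a median of -0.08. Uqcrh, the hinge protein that docks cytochrome c, came next after Atp5md by unadjusted p over both muscles, at -0.19 ± 0.10 (unadjusted p = 0.0679, limma adjusted p = 0.997). Its gastrocnemius values were 11.48, 11.80, 11.38 and 11.36 in NTg and 11.34, 11.34, 11.15 and 11.31 in SOD1G93A. Each SOD1G93A array there lay below each NTg array. In triceps the NTg values of 11.48, 11.54, 11.27 and 11.27 overlapped the SOD1G93A values of 11.48, 11.28, 10.99 and 11.21. Cyc1, the haem subunit, differed by -0.14 ± 0.23 in gastrocnemius and 0.11 ± 0.23 in triceps, or -0.08 there without the 3 arrays. Uqcrfs1, the Rieske iron-sulfur protein, differed by -0.04 in each muscle. The brightest probe set of Cycs, cytochrome c itself, differed by -0.01 ± 0.18 in gastrocnemius and 0.18 ± 0.18 in triceps, where it was -0.00304 without the 3 arrays.

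Separation of all arrays, as for Uqcrh, was met by 4 of 75 members in gastrocnemius, against 2.7% of all tested probe sets. The other members were higher in SOD1G93A and were Atp5o, part of the stator stalk of ATP synthase, Atp5pb, another stalk subunit, and Cox5b. Atp5pb (1426742_at) read 11.11, 11.17, 11.19 and 11.14 in NTg and 11.26, 11.28, 11.24 and 11.37 in SOD1G93A. Its difference was 0.13 ± 0.13 (limma adjusted p = 0.999), and its triceps arrays, at 10.89 to 11.43 in NTg and 10.96 to 11.48 in SOD1G93A, overlapped. Atp5o (1416278_a_at) differed by 0.13 ± 0.14 and Cox5b (1416902_a_at) by 0.16 ± 0.15. Other tested probe sets of Atp5o, Atp5pb and Cox5b did not separate. Over both muscles Atp5o was at 0.11 on this probe set and -0.11 on its other. No member separated in triceps, where 0.949% of all tested did, and none in the mouse means over both muscles, where 1.12% did.

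In complex IV, 19 of 24 probe sets were above 0 in gastrocnemius and 11 of 24 in triceps, with medians of 0.07 and -0.02, and 4 of 24 in triceps without the 3 arrays. Paired isoforms were compared for a shift from one form to the other. Cox6a2, the striated muscle form of subunit VIa, differed by 0.08 ± 0.22 in gastrocnemius and 0.08 ± 0.22 in triceps, and the widely expressed Cox6a1 by 0.07 ± 0.19 and 0.02 ± 0.19. Cox7a1, the muscle form of VIIa, differed by -0.09 ± 0.10 and -0.02 ± 0.10, and the wide form Cox7a2 by 0.01 and 0.03. Cox8b, the muscle form of VIII, differed by 0.13 ± 0.17 and -0.08 ± 0.17. Its wide counterpart Cox8a (1416112_at) differed by 0.34 ± 0.25 and -0.16 ± 0.25, and its other probe set by -0.26 and -0.20. Thus the larger value for Cox8a in gastrocnemius was not shared by its other probe set. Cox4i1 and Cox5a, subunits with no second form among the tested members, differed by 0.06 and -0.01 over both muscles. The 3 probe sets of Cox7a2l, a factor that joins complexes III and IV, differed by 0.01 to 0.09 in gastrocnemius and -0.29 to -0.20 in triceps, or -0.27 to -0.03 there without the 3 arrays. The difference between those effects had an unadjusted p of 0.136 for its brightest probe set.

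In complex V, the one member at an unadjusted p under 0.05 was Atp5md, which encodes DAPIT, a small membrane subunit that joins ATP synthase dimers. Its NTg gastrocnemius values were 10.80, 11.27, 11.13 and 11.61, and its SOD1G93A gastrocnemius values 11.00, 10.69, 10.65 and 10.58. In triceps it read 11.63, 11.66, 10.71 and 11.28 in NTg and 10.60, 11.21, 10.34 and 11.17 in SOD1G93A. The SOD1G93A arrays were low on the whole in both muscles, and the groups overlapped in each. The difference was -0.47 ± 0.23 in gastrocnemius (unadjusted p = 0.0515), -0.49 ± 0.23 in triceps (unadjusted p = 0.0444) and -0.48 ± 0.18 over both muscles (unadjusted p = 0.0152, limma adjusted p = 0.997). That is 1.40-fold lower over both, with a 95% confidence interval from 0.551 to 0.930 of the NTg level. Mouse means were 11.22, 11.47, 10.92 and 11.44 in NTg and 10.80, 10.95, 10.49 and 10.88 in SOD1G93A. An exact two-sided permutation test of these means gave p = 0.0571, where 4 mice against 4 cannot go below 0.0286. Atp5md was picked for it by having the smallest genotype p of the 75 members in these same data. The permutation p is therefore no separate support. Without the 3 triceps arrays the difference was -0.29 in triceps (limma adjusted p = 0.997) and -0.36 over both muscles (limma adjusted p = 0.999). Atp5md has 1 probe set, so no other reading of it was at hand.

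Atp5e, the epsilon subunit of the central stalk, was the one member at an unadjusted p under 0.05 for the interaction. It read 10.98, 11.01, 10.95 and 10.76 in NTg and 10.93, 11.40, 11.03 and 11.14 in SOD1G93A gastrocnemius. In triceps its values were 10.90, 11.42, 11.06 and 11.25 in NTg and 10.56, 10.91, 10.78 and 11.21 in SOD1G93A. The SOD1G93A mean was thus the higher in gastrocnemius, by 0.20 ± 0.15, and the lower in triceps, at -0.29 ± 0.15, with overlap in both. The effects differed by 0.49 ± 0.21 (unadjusted p = 0.0313, limma adjusted p = 0.999). Without the 3 arrays the triceps difference was -0.31 and the effects differed by 0.50 (limma adjusted p = 0.907).

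No core subunit of ATP synthase was called by genotype. Atp5a1 and Atp5b encode the alpha and beta subunits that form the catalytic head. Their brightest probe sets differed by 0.10 ± 0.18 and 0.08 ± 0.15 over both muscles. Atp5g1, Atp5g2 and Atp5g3 encode the same mature c subunit of the rotor ring, and differed by -0.05, 0.19 and 0.10. For Atp5g2 the triceps part was 0.27 ± 0.23, and -0.12 without the 3 arrays. In the complex as a whole 18 of 26 probe sets were above 0 in gastrocnemius and 14 of 26 in triceps, or 7 of 26 there without the 3 arrays, with a median of -0.04.

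**Figure D2:**
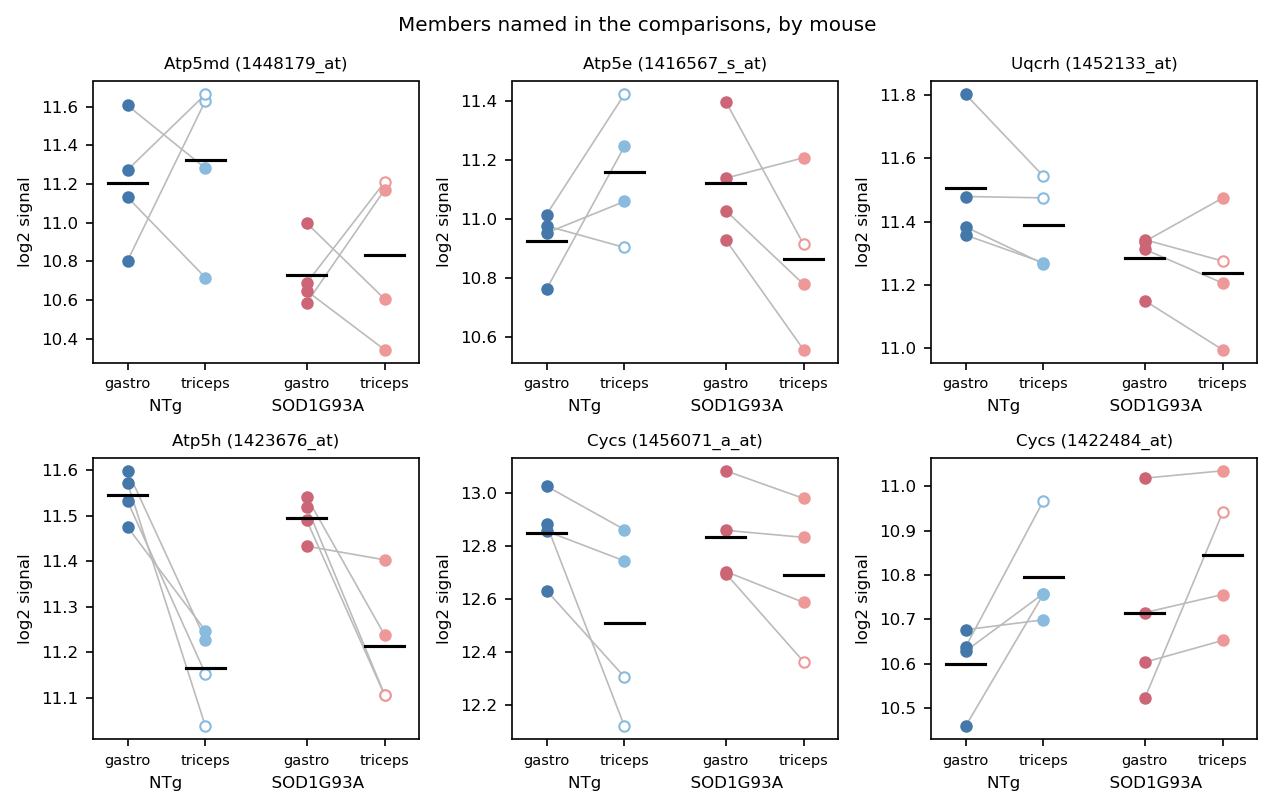
Log2 signal of 6 probe sets of the 5 genes Atp5md, Atp5e, Uqcrh, Atp5h and Cycs in gastrocnemius (gastro) and triceps of NTg and SOD1G93A mice. Points are arrays, grey lines join the muscles with the same genotype and replicate number, black bars are group means (n = 4), and open points are the 3 triceps arrays that stood apart; Atp5h is lower in triceps along all 8 lines, and the Cycs probe sets run in opposite directions.

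The second comparison set gastrocnemius against triceps, the other factor of the design, over both genotypes. Atp5h, subunit d of the peripheral stalk of ATP synthase, was higher in gastrocnemius and was the only one of 75 members called, against 3.69% of all tested probe sets. Its probe set 1423676_at read 11.53, 11.57, 11.48 and 11.60 in NTg and 11.49, 11.52, 11.54 and 11.43 in SOD1G93A gastrocnemius. In triceps it read 11.15, 11.04, 11.25 and 11.23 in NTg and 11.11, 11.11, 11.24 and 11.40 in SOD1G93A. Each gastrocnemius array was above each triceps array. The difference was 0.33 ± 0.07 (limma adjusted p = 0.012), or 1.26-fold, and 0.28 without the 3 arrays (limma adjusted p = 0.0318). It was above 0 in 8 of 8 mice, at 0.03 to 0.54. The other Atp5h probe set differed by 0.32 ± 0.12 (limma adjusted p = 0.153), and by 0.12 without the 3 arrays.

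Most other members had a higher mean in gastrocnemius without being called. The difference was above 0 for 63 of 75, with a median of 0.22, against -0.004 over all tested probe sets and 0.08 over the 864 brightest other ones. At an unadjusted p under 0.05, 24 members were higher in gastrocnemius, against 11.4% of all tested, and 3 lower, against 11%. By complex, 5 of 7 probe sets of complex II, 10 of 13 of complex III, 2 of 3 of cytochrome c, 23 of 24 of complex IV and 22 of 26 of complex V were above 0. Without the 3 arrays these counts were 4, 9, 2, 22 and 18. In NTg mice alone the median was 0.21 with 0 members called (1.23% of all tested), and in SOD1G93A mice alone 0.22 with 0 called (1.04%). In NTg and SOD1G93A alone, 7 and 8 members were higher at an unadjusted p under 0.05. The share of all tested is not given beside these counts, so they are not read as a trait of the members. With the replicate block, which compares the muscles within a mouse, 2 members were called, Atp5h and Atp5a1 (the alpha subunit of the catalytic head), and 318 probe sets in all against 171. With replicates 1 and 2 against 3 and 4 as a term, 17 members were called, and 436 probe sets in all. After quantile normalization no member was called, and 158 probe sets in all. Without SOD1G93A triceps replicate 4, the calls numbered 5 and were Atp5h, Cox8b, Sdhaf4, Uqcrfs1 and Uqcrq, and 180 probe sets were called in all. Without NTg triceps replicate 3 the members called were Atp5h and Cox8b, of 272 probe sets in all. Without NTg triceps replicate 4 they were Atp5h and Sdhc, of 257 in all.

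Much of this shift came with the 3 triceps arrays. The median deviation of the members from their own means was -0.39 to -0.25 in those arrays, -0.13 to 0.18 in the other 5 triceps arrays and 0.05 to 0.18 in the 8 gastrocnemius arrays. Bright probe sets outside these complexes stood at -0.16 to -0.12 in the 3 arrays and -0.05 to 0.04 in the other triceps arrays. All 16 probe sets for the 14 muscle fibre markers had a higher mean in gastrocnemius, and their mean log2 signal was 12.51 to 12.75 in the 3 arrays and 13.40 to 14.01 in the other triceps arrays. Without the 3 arrays the member median was 0.04, with 56 of 75 above 0, and Atp5h was still called. At an unadjusted p under 0.05, 5 members were then higher and 2 lower. These counts, too, stand without the share of all tested and are not read as a trait of the members. The 3 arrays all come from mice numbered 1 and 2, in which the median was 0.39, against 0.06 in mice 3 and 4. Some markers of Schwann cells and of fibroblasts and matrix also differed between the muscles. None of the 3 adipocyte and 4 immune probe sets tested was called, with smallest limma adjusted p values of 0.476 and 0.361. Markers of endothelium and erythroid cells were too dim to test. For Schwann cells, which ensheathe nerve fibres, the 4 tested probe sets of Mbp and Pmp22 were called higher in gastrocnemius, with a median of 2.01, or 1.90 without the 3 arrays, where 4 were still called. Over all 7 probe sets of that list in the table, tested or not, the mean log2 signal was 7.79 to 8.17 in NTg gastrocnemius. It was 6.21 to 8.38 in SOD1G93A gastrocnemius, and 5.88 to 6.25 in NTg and 5.78 to 6.54 in SOD1G93A triceps. Of fibroblast and matrix markers 2 of 7 were called higher, 1 each of the collagen chains Col1a2 and Col1a1, at 1.12 and 1.31. The list median was 0.76, or 0.38 with 1 called without the 3 arrays. Lum, of the same list, lay below 0, at -0.19 (limma adjusted p = 0.602). Over all 9 probe sets of this list in the table, tested or not, the mean log2 signal was 9.17 to 10.05 in gastrocnemius. It was 8.40 to 9.20 in the 3 triceps arrays and 9.33 to 9.63 in the other 5. The part of these cell types in the members' shift was not tested. In bulk muscle, fewer fibres of a type and less RNA per fibre cannot be told apart, and the part of array quality in the shift was not tested.

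**Figure D3:**
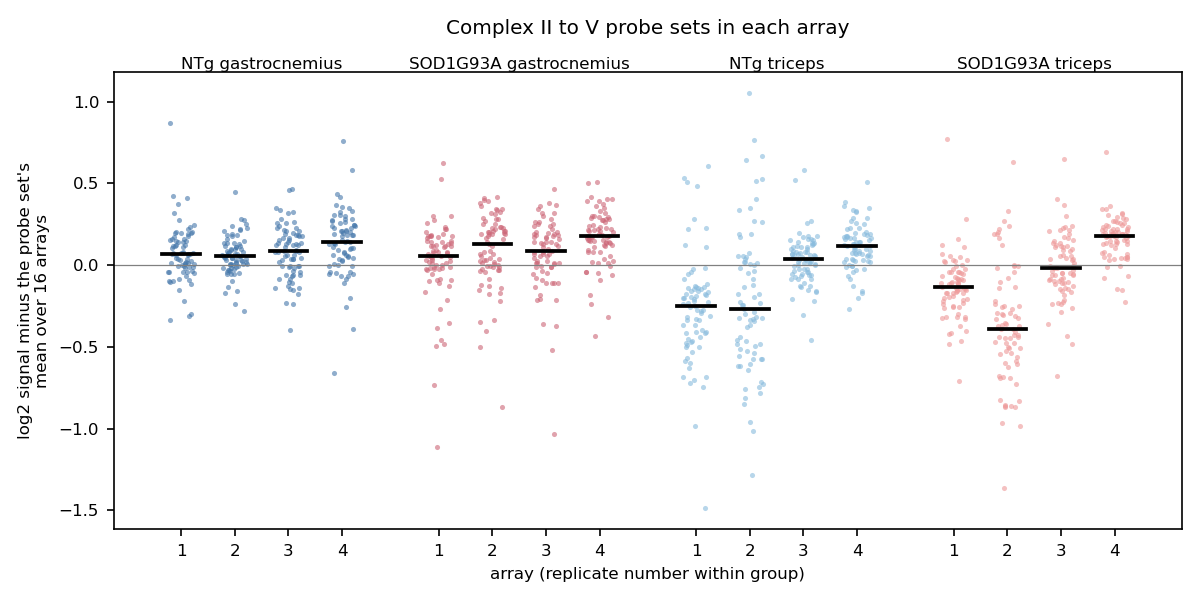
Log2 signal of the 75 tested probe sets minus each one's mean over 16 arrays, by array. Points are probe sets and bars the medians of an array; NTg triceps replicates 1 and 2 and SOD1G93A triceps replicate 2 have medians of -0.25, -0.27 and -0.39, and the 8 gastrocnemius arrays lie between 0.05 and 0.18.

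Mouse by mouse, 13 of 75 members were higher in gastrocnemius in 8 of 8 mice, a share of 17.3% against 5.93% of all tested probe sets. Of the 13, 7 belonged to complex V (Atp5a1, Atp5c1, Atp5g1, Atp5g3, Atp5h, Atp5l and Atp5o), 5 to complex IV (Cox4i1, Cox5a, Cox6c and 2 of Cox5b) and 1 was Cycs. In the 5 mice with no array set apart, 14 of 75 (18.7%) were higher in each, against 9.1%. Only 1 member, another Cycs probe set, was lower in 8 of 8 mice, against 4.4% of all tested.

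Cycs shows how far probe sets of a gene could part. The brightest, 1456071_a_at, read 12.63 to 13.03 in NTg and 12.70 to 13.08 in SOD1G93A gastrocnemius, and 12.12 to 12.86 and 12.36 to 12.98 in triceps. The difference was 0.24 ± 0.13, above 0 in each of the 8 mice. On 1422484_at gastrocnemius read 10.46 to 10.68 in NTg and 10.52 to 11.02 in SOD1G93A, and triceps 10.70 to 10.97 and 10.65 to 11.04. That difference was -0.16 ± 0.09, below 0 in each of the 8 mice. Both missed the threshold, at limma adjusted p values of 0.257 and 0.268. The third Cycs probe set differed by 0.35 ± 0.12 (limma adjusted p = 0.114).

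Of the 22 genes with several tested probe sets, 9 had brightest and dimmest ones on opposite sides of 0 between the muscles. The brighter had the higher value in 18 of the 22, and in 14 without the 3 arrays. Atp5o gave 0.26 on its brighter and -0.43 on its dimmer probe set, and Sdhd gave 0.31 and -0.40. In Sdha the order was turned, with -0.22 on the brighter (1426689_s_at) and 0.21 on the dimmer. Across the 75 members the mean signal and the gastrocnemius minus triceps difference had a Pearson r of 0.418 and a Spearman rho of 0.478, and 0.245 and 0.14 without the 3 arrays. These are descriptions across probe sets that share the same arrays.

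**Figure D4:**
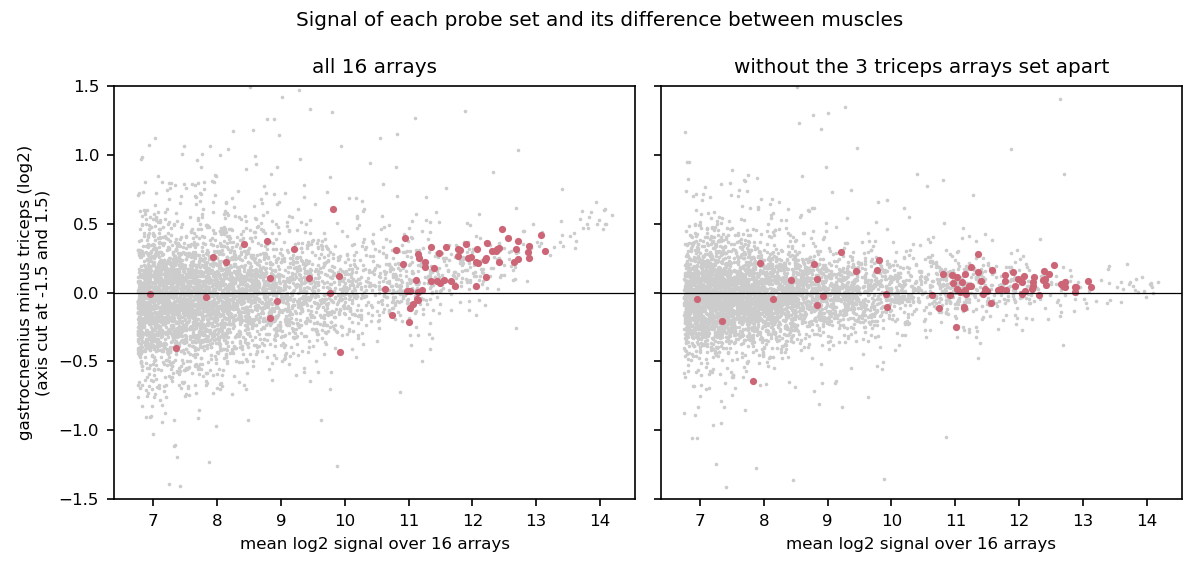
Mean log2 signal over 16 arrays against the gastrocnemius minus triceps difference (log2), for the 75 members (red) and the other tested probe sets (grey), with all 16 arrays and without the 3 triceps arrays; 23 probe sets, none a member, lie beyond 1.5 in each panel. The bright end bends upward in the first panel and lies near 0 in the second.

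The isoforms of complex IV were set side by side between the muscles. Muscle forms differed by 0.39 ± 0.12 for Cox8b (limma adjusted p = 0.0834), 0.29 ± 0.16 for Cox6a2 and 0.09 ± 0.07 for Cox7a1. Wide forms differed by 0.35 ± 0.18 for Cox8a, 0.11 ± 0.14 for Cox6a1 and 0.22 for Cox7a2. Neither kind was called, and their ranges overlap. Cox8b read 12.55 to 12.75 in NTg and 12.66 to 12.91 in SOD1G93A gastrocnemius, and 12.11 to 12.72 and 11.94 to 12.72 in triceps, so the muscles overlapped. Without the 3 arrays its difference was 0.20 (limma adjusted p = 0.338). The brightest Cox7a2l probe set differed by 0.31, or 0.29 without them. Among slow fibre markers, which set the muscles' fibre types apart, 17 of 18 probe sets were called, with a median of 4.41, or 4.04 without the 3 arrays.

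Other genes of the pathway were read from lists. Of the assembly factors, which build the complexes, 21 of 39 listed genes were tested by 23 probe sets. None was called for genotype or muscle, and the median between the muscles was 0.02. Sdhaf1 and Sdhaf4 belong to both that list and the members. Of the 21 regulators of mitochondrial genes, 13 were in the table and 7 were tested, by 8 probe sets. Ppargc1a, Nrf1 and Gabpa were among the 6 too dim to test. No regulator was called. Between the muscles the 8 had a median of -0.18, with 1 above 0, and Tfam, which packages and transcribes mitochondrial DNA, had -0.45 (limma adjusted p = 0.166). Over all 21 regulator probe sets in the table, most of them too dim to test, the mean level was 6.83 to 7.00 in the 3 triceps arrays. It was 6.44 to 6.65 in the other 5. Of the 10 tested genes that use ATP or the proton gradient, 2 were called higher in gastrocnemius and none by genotype. They were Nnt, a proton-driven transhydrogenase, at 1.06 (limma adjusted p = 0.0285), and Ckmt2, mitochondrial creatine kinase, at 0.41 (limma adjusted p = 0.0493). Neither was called without the 3 arrays. Complex I had 66 probe sets of 37 genes tested and none called, with a median of 0.02 for genotype over both muscles and 0.08 between the muscles.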

How the data were processed

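Biotin-labelled cRNA from 4 ug of total RNA of each of 16 samples was hybridised to Affymetrix mouse arrays, per the labels' protocols. The authors deposited log2 values, 1 per probe set and array, and MAS5 is the only tool in the submitters' processing notes. Its scaling, and the rule that left 7729 probe sets, are not stated in the sources at hand. Base 2 was read from the range of -0.773 to 14.81. The number of arrays limits the precision. Symbols came from the platform annotation, and all 46 member genes were found in RefSeq (GRCm38.p6) with 0 symbols changed. 330 probe sets with several symbols and 346 with none were not named.

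Values were used as deposited. Probe sets with a mean above the 40th percentile (6.75) were tested, 4637 in all, with limma 3.58.1 in R 4.3.3: a mean per group, eBayes with an intensity trend, and Benjamini-Hochberg adjustment over all tested, called at 0.05. For the genotype difference over both muscles the mouse was a random block (duplicateCorrelation, 0.185). The other main comparisons, gastrocnemius against triceps among them, had no mouse term. The labels call the replicates biological. Alternatives covered normalization, filter, trend, weights, blocks, 1 value per gene and each array left out.

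Replicate numbers were taken to pair the muscles of a mouse, which the labels do not state. In the data 8 of 8 arrays correlated best with their own number, at 0.136 to 0.388. Across genotypes, same-numbered arrays correlated at 0.000647 to 0.373, so genotypes were not paired. Named were called members, the 3 of smallest p per direction and comparison, isoform pairs, catalytic or haem subunits, and the brightest and dimmest per complex. Members and lists were chosen with earlier results of these data known.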

Additional observations from a re-analysis of the deposited data

Results flagged for a closer look

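Single arrays stood apart in 2 of the 76 group values examined, where chance alone would set apart about 1 in 20. Uqcrh (1452133_at) read 11.15 in SOD1G93A gastrocnemius replicate 3, below the 11.31 to 11.34 of the other 3 arrays of its group. Cox7a2l (1432263_a_at) read 8.89 in SOD1G93A triceps replicate 4, above the 8.54 to 8.57 of the others. Whether RNA or array quality played a part was not tested.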

How the results depend on the processing

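No member was called by genotype under the 26 settings run, and no other call than those named here changed. Between the muscles, where 1 member was called, quantile normalization gave 0 (158 probe sets in all) and array weights gave 2 (Atp5h and Cox7a2l, 202 in all). With the replicate block, which pairs the muscles of a mouse, 2 were called (Atp5a1 and Atp5h), and 318 probe sets in all against 171. With replicates 1 and 2 against 3 and 4 as a term, 17 were called, and 436 in all. Leaving out single arrays gave 1 to 5 calls, and 99 to 272 in all. There were 5 without SOD1G93A triceps replicate 4 (180 in all), and 2 without NTg triceps replicate 3 or 4 (272 and 257 in all). The median difference of the members between the muscles, 0.22, was 0.16 to 0.28 with single arrays left out, 0.043 after quantile normalization, 0.045 without the 3 triceps arrays, and 0.39 in mice 1 and 2 and 0.064 in mice 3 and 4; the last 3 settings were chosen after seeing the data. Atp5h was not called after quantile normalization (0.20, limma adjusted p = 0.0636) or with 1 value per gene (0.32, 0.055). Triceps genotype differences changed sign without NTg triceps replicate 2 for Sdha (1426688_at) and Atp5g2, which ranged from -0.00453 to 0.40 and from -0.051 to 0.44 with single arrays left out, and without the 3 arrays for Sdha (-0.00106), Atp5g2 (-0.12) and Cycs (-0.00304); with 1 value per gene Atp5o over both muscles was -4.51e-05. All these differences missed the threshold. Cox8b was called without NTg triceps replicate 3 or SOD1G93A triceps replicate 4 and with replicate sets as a term, and Cox7a2l with array weights. The causes were not tested.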
